A study of Mus musculus with 12 samples.

Results

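The heat shock chaperone genes examined here are Hspa1a, Hspa1b, Hspa8, Hsph1, Dnajb1, Bag3, Hsp90aa1, Hsp90ab1, Hspa5 and Hspd1, chosen by name and matched to the Ensembl identifiers of the gene table. They are 10 of the 46078 genes in the table, and all 10 passed the filter on low counts, which kept 16527. The data are 12 libraries of poly(A)-selected RNA from spinal cords of mice. The host strain in every group is C57BL6/cJ. The 4 groups of 3 libraries are cord without injury (non-injured), cord after spinal cord injury (SCI), SCI followed by transplantation of syngeneic mesenchymal stem cells (MSC, stromal cells that can form bone, cartilage and fat), in which donor and host are genetically matched, and SCI followed by transplantation of allogeneic MSC, in which they are not. The sources used here give no time after injury, cord segment, age or sex of the mice, donor strain or control treatment of the SCI group. They also do not say whether the 3 libraries of a group are separate animals. The p-values therefore measure the spread between these libraries, which may be in part technical.

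Chaperones bind unfolded stretches of other proteins and help them to fold, to refold or to be degraded. HSP70 proteins do this in cycles of ATP use that J-domain proteins start and nucleotide exchange factors end, and HSP90 proteins receive part-folded clients such as kinases and steroid receptors. The cytosolic members of the system are switched on together by heat shock factor 1 (HSF1) when proteins misfold, whereas the chaperone of the endoplasmic reticulum (ER) is controlled by the unfolded protein response. In nervous tissue the inducible HSP70 genes are classical markers of cellular stress, and the constitutive HSC70 and HSP90 genes are abundant in neurons.

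RefSeq windows from 250 bases before to 50 after a start site (build GRCm38.p6) were found for 7 of the 10 genes, and not for Hspa8, Hsp90aa1 and Hsp90ab1. They were searched on both strands for the heat shock element, the site that HSF1 binds, written as alternating units GAA and TTC with any 2 bases between units. They were also searched for the ER stress element, written as CCAAT, any 9 bases and CCACG, and for TATAAA. Positions count from 0 at the start site. The sequences before the start sites of Hspa1a and Hspa1b are shown because these inducible genes are near-identical copies; capitals mark a heat shock element of 2 units. They lie at chr17:34972157-34972406 for Hspa1a and chr17:34959239-34959488 for Hspa1b, both on the minus strand.
Hspa1a: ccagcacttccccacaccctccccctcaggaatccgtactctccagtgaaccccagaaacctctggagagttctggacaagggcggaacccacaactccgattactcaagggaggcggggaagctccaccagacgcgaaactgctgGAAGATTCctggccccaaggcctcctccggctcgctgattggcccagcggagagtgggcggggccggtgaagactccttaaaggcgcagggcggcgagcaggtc
Hspa1b: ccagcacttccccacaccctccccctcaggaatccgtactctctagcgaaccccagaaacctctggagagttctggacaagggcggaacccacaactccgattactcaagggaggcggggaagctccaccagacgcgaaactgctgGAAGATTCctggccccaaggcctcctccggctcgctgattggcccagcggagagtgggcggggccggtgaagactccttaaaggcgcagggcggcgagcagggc

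These sequences differ at 3 of 250 bases, and in both the element GAAGATTC lies at positions -104 to -97. Hspa5 was the only one of the 7 genes with an ER stress element, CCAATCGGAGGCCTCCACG, at positions -65 to -47 (chr2:34772025-34772043, plus strand). This element lies before the RefSeq start site but inside the annotated gene, which starts at 34771970. Of the 250 bases before that site, 120 lie in annotated exons. Heat shock elements of 3 units were found in Hsph1, as TTCTGGAAAGTTC at positions 36 to 48 (chr5:149636288-149636300, minus strand), and in Hspd1, as TTCCGGAAGGTTC at -144 to -132 and, overlapping it, GAAGGTTCTAGAA at -139 to -127 (chr1:55088064-55088076 and chr1:55088059-55088071, minus strand). Positions refer to the first listed window of Hsph1 and the second of Hspd1, whose start site lies inside the gene. All 250 bases before that site lie in annotated exons, so the Hspd1 matches lie within the gene and not upstream of it. The first window of Hspd1 held no heat shock element of 2 or 3 units. Every match of 3 units contains matches of 2 units. Apart from these, Hsph1 held a further 2-unit match, TTCTCGAA, at -33 to -26, and Bag3 held GAAGTTTC at 42 to 49. The further Hsph1 match also lies inside its annotated gene. Of all 32851 windows, 0.603% held 3 units, 15.1% held 2 units, 0.119% held the ER stress element and 13.6% held TATAAA, which none of the windows of these 7 genes held. A match describes the letters only and is no evidence of binding.

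The 10 genes covered a wide range of levels. Levels of genes were compared as CPM (the read count relative to the library size, scaled by the trimmed mean of M values) per kilobase of exon, averaged over the 12 libraries. Hsp90ab1, the constitutive cytosolic HSP90, was highest at 463 and was followed by Hspa8, the constitutive cytosolic HSP70 known as HSC70, at 374. Hsp90aa1, the stress-inducible HSP90, lay at 262, and these 3 genes ranked at or above the 99.4th percentile of all genes tested. Below them came Hspa5 (81.1), Hspd1 (69.7), Hsph1 (32.1), Bag3 (22.2) and Dnajb1 (13.1). Hspa1a (1.44) and Hspa1b (0.978), the inducible HSP70 genes, were lowest and ranked above 26.2% and 20.1% of the genes tested. The order was the same per length of the longest transcript. Neighbours in this order overlapped between libraries for Hsp90ab1 and Hspa8, Hspa5 and Hspd1, Hsph1 and Bag3, and Hspa1a and Hspa1b, and the other neighbours did not overlap.

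**Figure D1:**
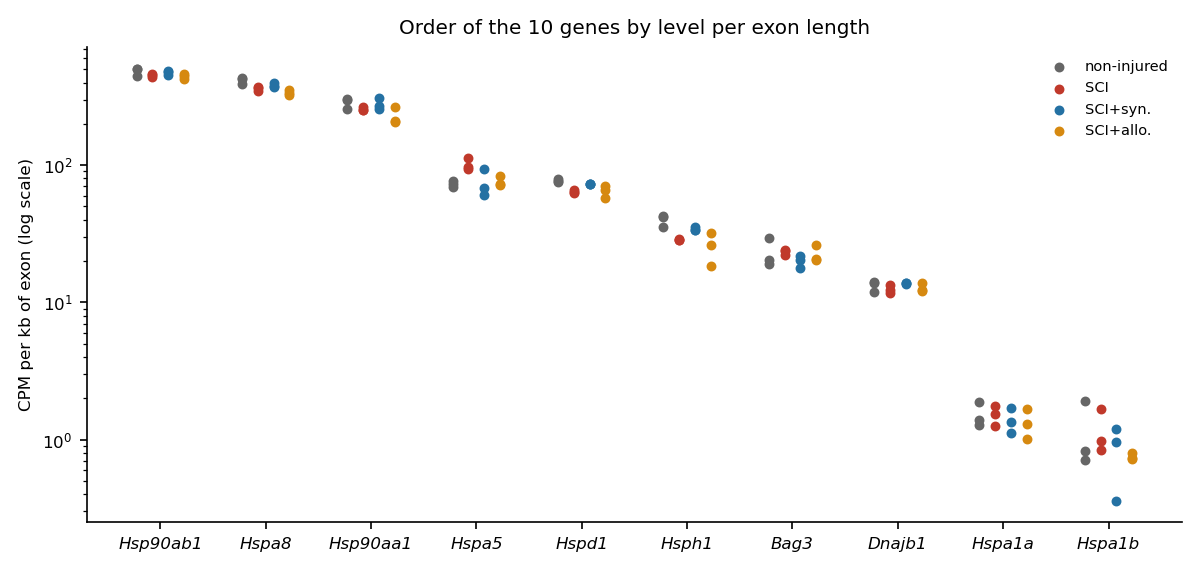
Level of each gene in every library, as CPM per kilobase of exon on a log axis, coloured by group and ordered by the mean over 12 libraries. The 3 highest genes have means of 262 to 463, whereas Hspa1a and Hspa1b have means of 1.44 and 0.978.

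The genes also differed in how much they varied. The standard deviation (SD) of log2 CPM over the 12 libraries was 0.08 for Hsp90ab1, 0.10 for Dnajb1 and 0.12 for Hspa8. Among genes within 1 log2 unit of their level, 3.41%, 9.64% and 8% had a smaller SD. Hsph1, with an SD of 0.33, and Hspa1b, with 0.60, lay at the other end, with 79.2% and 71.9% of genes of like level having a smaller SD. Together the 10 genes took 0.426% to 0.560% of the counts of a library.

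SCI was compared with non-injured cord to ask which chaperone genes differed after injury. Only Hspa5, the HSP70 of the ER, was called, and it was higher in SCI by 1.39-fold (95% confidence interval, CI, 1.10 to 1.76). A gene is called where the adjusted p of edgeR's quasi-likelihood test, by the Benjamini-Hochberg method over all 16527 genes, lies below 0.05. Thus 1 of 10 was called higher and 0 of 10 lower, whereas 16.6% of all genes tested were called higher and 9.26% lower. The other 9 genes did not pass the test, among them both inducible HSP70 genes. The median log2 fold change of the 10 genes was -0.10, against 0.01 over all genes, and the median size of the change was 0.13, against 0.30. At an unadjusted p below 0.05 stood 3 genes, Hspa5, Hsph1 and Hspd1, against 38.4% of all genes. DESeq2 called 4 genes (Hsph1, Hspa5, Hspa8 and Hspd1), of which Hspa5 alone was higher. Without allogeneic replicate 1 edgeR called Hsph1 and Hspd1 beside Hspa5, without allogeneic replicate 3 it called Hsph1 and Hspd1 in its place, and without non-injured replicate 3 Hsph1 alone. The libraries of the groups did not overlap for 1 gene that was higher in SCI and 3 that were lower (Hspa8, Hsph1 and Hspd1), whereas 26.3% and 21.2% of all genes had no overlap in these directions.

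**Figure D2:**
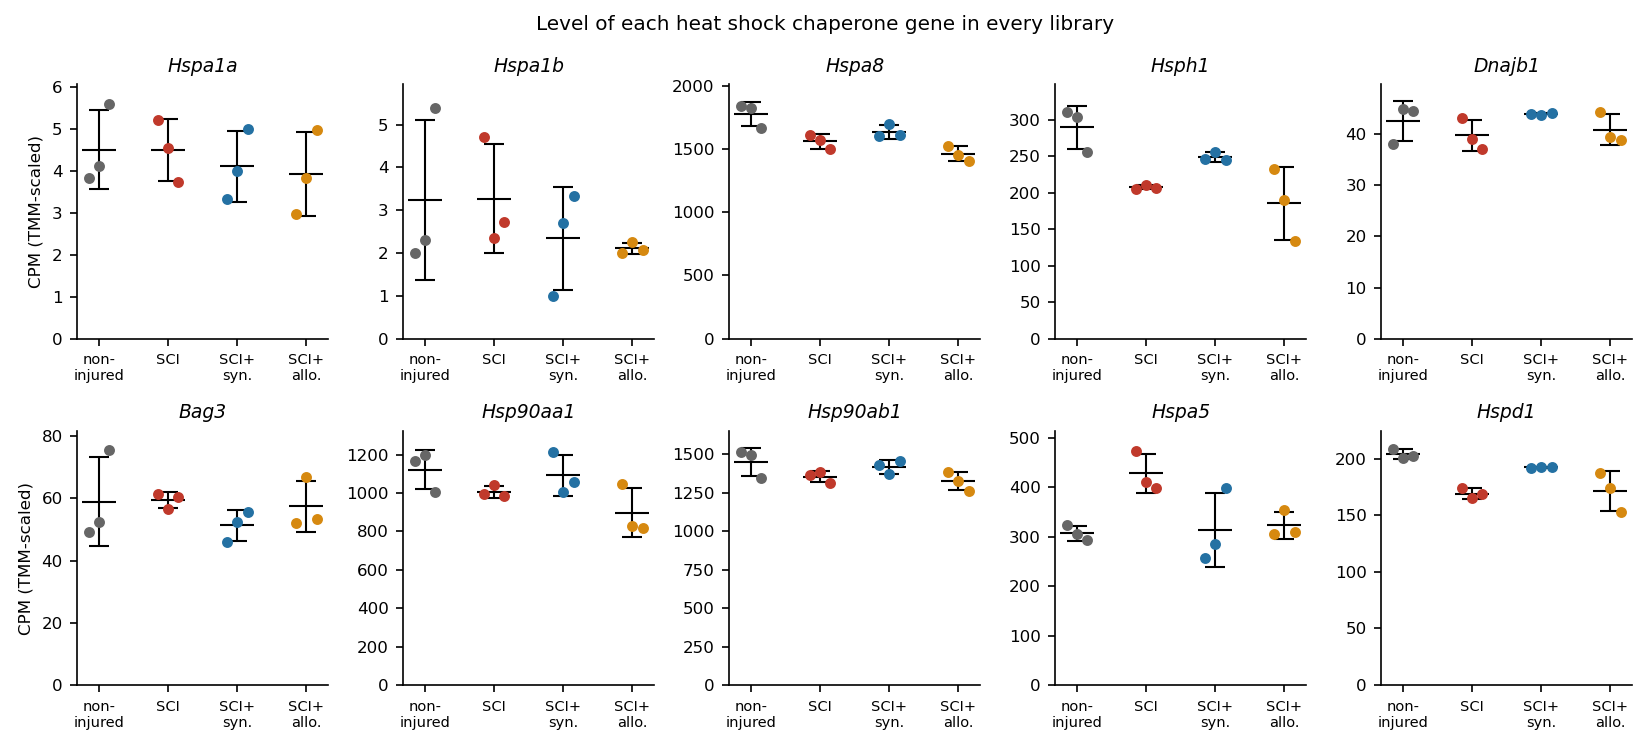
Level of each gene in every library, in CPM scaled by the trimmed mean of M values, with 1 point for each library in replicate order, a long bar for the group mean and whiskers for 1 SD (n = 3). Hspa5 is higher in all 3 SCI libraries (399 to 473) than in the non-injured ones (293 to 323), and Hspa1a and Hspa1b do not exceed 5.59 CPM in any library.

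Hspa1a (ENSMUSG00000091971, chromosome 17, 34969190 to 34972156, GRCm38) and Hspa1b (ENSMUSG00000090877, chromosome 17, 34956436 to 34959238) each consist of 1 exon and encode the same kind of stress-inducible cytosolic HSP70. Of all 50-base stretches of the Hspa1a transcript 58.8% also occur in Hspa1b, so reads may have been shared between them or discarded, and their separate values are uncertain. In addition 564 bases (19.0%) of the Hspa1a exon overlap Gm20481 on the opposite strand, and the strand setting of the counting is not given in the sources used here. Hspa1a was at 3.83, 4.12 and 5.59 CPM in the non-injured libraries (replicates 1 to 3), 5.21, 4.56 and 3.74 in SCI, 3.32, 4.0 and 5.01 with syngeneic and 2.98, 3.84 and 4.98 with allogeneic MSC. Hspa1b was at 2.01, 2.31 and 5.38 CPM in the non-injured libraries, 4.72, 2.36 and 2.72 in SCI, 1.01, 2.70 and 3.34 with syngeneic and 2.01, 2.26 and 2.08 with allogeneic MSC. Both genes overlapped between non-injured and SCI libraries, and the highest values of both were in non-injured replicate 3.

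The difference between SCI and non-injured cord was -0.0028 on the log2 scale for Hspa1a (SE 0.24, 95% CI -0.54 to 0.53) and 0.01 for Hspa1b (SE 0.46, CI -0.99 to 1.01). When the counts of both genes were added before the fit, the difference was 0.0040 (adjusted p = 0.995, edgeR quasi-likelihood test). The counts behind these values were few: the 2 genes together had 54 to 214 counts in a library. A change in Hspa1b of up to 2.02-fold lay within its interval, and its coefficient of variation between the non-injured libraries was 57.7%. Per kilobase of exon the 2 genes together reached 0.397% to 0.982% of the level of Hspa8.

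Hspa8 (ENSMUSG00000015656, chromosome 9, 40800984 to 40810087), which folds proteins in unstressed cells and uncoats clathrin vesicles at synapses, was at 1842, 1823 and 1666 CPM in the non-injured libraries, 1609, 1574 and 1498 in SCI, 1601, 1699 and 1611 with syngeneic and 1525, 1456 and 1405 with allogeneic MSC. All SCI and all allogeneic libraries lay below all non-injured ones. The difference between SCI and non-injured cord was -0.19 (SE 0.10, adjusted p = 0.211, edgeR quasi-likelihood test). Of its 50-base stretches 39.4% occur in other genes, most in the pseudogene Gm15459, and 3 small nucleolar RNA genes lie in its exons, so its counts may include or lack reads shared with them.

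Hsph1 (ENSMUSG00000029657, chromosome 5, 149614287 to 149636376) encodes HSP110, which exchanges the nucleotide of HSP70 and keeps unfolded proteins soluble. It was at 310, 303 and 256 CPM in the non-injured libraries, 206, 211 and 206 in SCI, 246, 256 and 245 with syngeneic and 233, 190 and 133 with allogeneic MSC. The SCI and allogeneic libraries all lay below the non-injured ones, and syngeneic replicate 2 reached the lowest of these, non-injured replicate 3. Hsph1 was 0.716 of its non-injured level in SCI (CI 0.557 to 0.922), a difference of -0.48 on the log2 scale (SE 0.17) that did not pass the test (adjusted p = 0.0527, edgeR quasi-likelihood test). With RLE size factors in place of the trimmed mean, and in DESeq2, it did. None of its 50-base stretches occurs in another gene.

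Dnajb1 (ENSMUSG00000005483, chromosome 8, 83608193 to 83612653), the J-domain protein that works with inducible HSP70, was at 38.1, 45.0 and 44.7 CPM in the non-injured libraries, 43.2, 39.2 and 37.2 in SCI, 44.1, 43.9 and 44.1 with syngeneic and 44.4, 39.5 and 39.0 with allogeneic MSC. Non-injured and SCI libraries overlapped, and the difference was -0.09 (CI -0.31 to 0.12). Bag3 (ENSMUSG00000030847, chromosome 7, 128523616 to 128546981), an exchange factor that routes HSP70 clients to autophagy, was at 49.1, 52.3 and 75.5 CPM in the non-injured libraries, 61.3, 56.6 and 60.5 in SCI, 46.0, 52.5 and 55.8 with syngeneic and 51.9, 66.8 and 53.5 with allogeneic MSC. Non-injured replicate 3 was again the highest library, and the SCI libraries lay within the range of the non-injured ones. The difference between SCI and non-injured cord was 0.01 for Bag3 (CI -0.34 to 0.36).

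Neither cytosolic HSP90 gene passed the test. Hsp90aa1 (ENSMUSG00000021270, chromosome 12, 110690605 to 110702728) was at 1166, 1196 and 1004 CPM in the non-injured libraries, 994, 1040 and 985 in SCI, 1211, 1005 and 1059 with syngeneic and 1046, 830 and 817 with allogeneic MSC. Hsp90ab1 (ENSMUSG00000023944, chromosome 17, 45567775 to 45573271) was at 1515, 1497 and 1349 CPM in the non-injured libraries, 1368, 1383 and 1314 in SCI, 1429, 1372 and 1458 with syngeneic and 1384, 1329 and 1264 with allogeneic MSC. For both genes non-injured and SCI libraries overlapped because non-injured replicate 3 was low. SCI differed from non-injured cord by -0.16 for Hsp90aa1 (CI -0.45 to 0.13) and by -0.10 for Hsp90ab1 (CI -0.33 to 0.12). Of the 50-base stretches of Hsp90aa1 47.5% occur in other genes, most in the pseudogene Gm12346, against 3.44% for Hsp90ab1.

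Hspa5 (ENSMUSG00000026864, chromosome 2, 34771970 to 34777547) encodes BiP, which folds proteins entering the ER and holds the sensors of the unfolded protein response inactive. It was at 323, 306 and 293 CPM in the non-injured libraries and 473, 412 and 399 in SCI. It was at 257, 286 and 398 with syngeneic MSC and at 305, 354 and 310 with allogeneic MSC. All SCI libraries lay above all others, the closest being syngeneic replicate 3. The rise in SCI was 0.48 on the log2 scale (SE 0.15, adjusted p = 0.0413, edgeR quasi-likelihood test), seen in 3 of 3 SCI libraries. The call rested on most of the libraries: it was lost when any 1 of the 3 non-injured or 3 SCI libraries, or allogeneic replicate 2 or 3, was left out (0.40 to 0.54, adjusted p = 0.0502 to 0.138), and with no filter on low counts (0.43, adjusted p = 0.0928). No 50-base stretch of Hspa5 occurs in another gene.

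Hspd1 (ENSMUSG00000025980, chromosome 1, 55077835 to 55088243) encodes HSP60, the chaperonin of the mitochondrial matrix, and shares a divergent promoter region with Hspe1, which encodes its partner HSP10. It was at 209, 200 and 203 CPM in the non-injured libraries, 174, 165 and 169 in SCI, 191, 192 and 193 with syngeneic and 187, 174 and 153 with allogeneic MSC. All 9 libraries of injured cord lay below the 3 non-injured ones, and the allogeneic libraries were spread the most. SCI differed from non-injured cord by -0.27 (SE 0.09), which did not pass the test (adjusted p = 0.0527, edgeR quasi-likelihood test) but did so with RLE size factors and in DESeq2. Hspe1 lay in the same direction at -0.47 (SE 0.18, adjusted p = 0.0808, edgeR quasi-likelihood test), and the transcripts of the pair overlap by 112 bases on opposite strands. Of the 50-base stretches of Hspd1 42.1% occur in other genes, most in the pseudogene Hspd1-ps3.

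**Figure D3:**
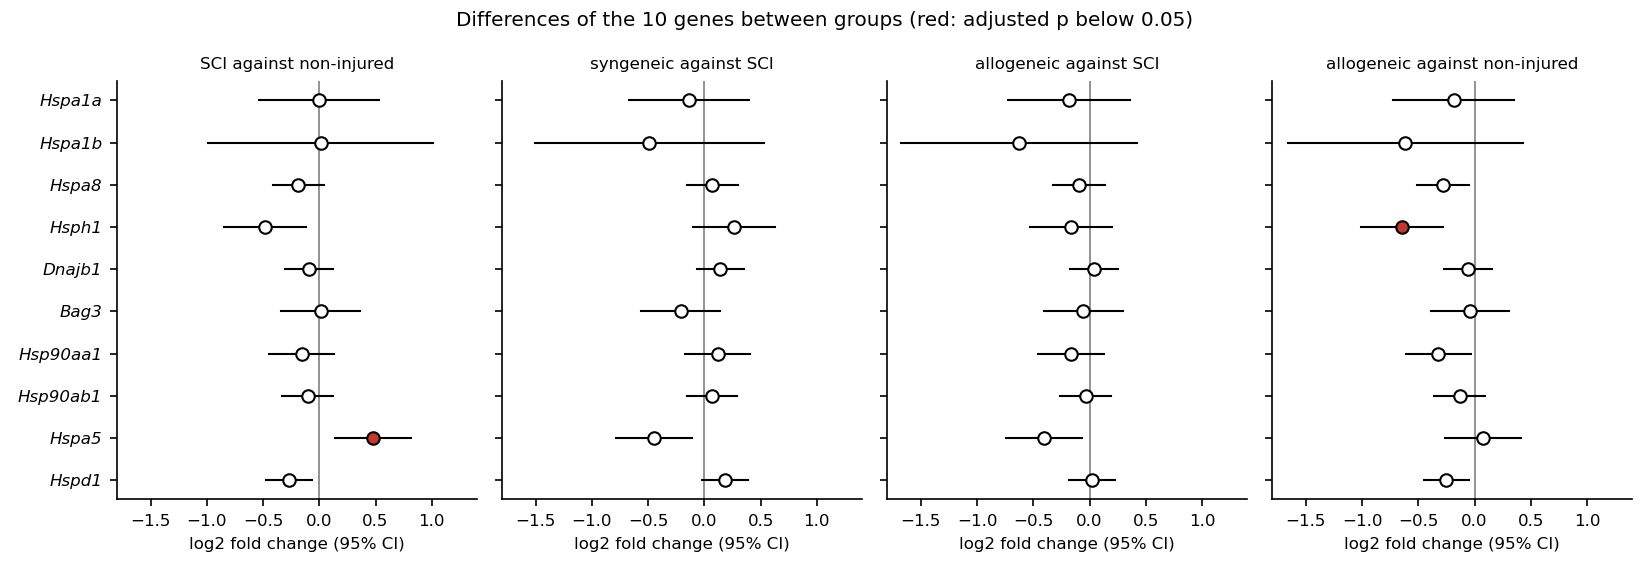
Log2 fold change of each gene in 4 comparisons, with the 95% confidence interval, red where the adjusted p lies below 0.05. Hspa5 in SCI against non-injured cord (0.48) and Hsph1 with allogeneic MSC against non-injured cord (-0.65) are the only called values, and the intervals of Hspa1b are the widest.

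The comparisons of transplanted with untreated injured cord asked whether either kind of MSC changed chaperone levels after SCI. No member was called in either one. With syngeneic MSC against SCI, 0.0363% of all genes were called, and with allogeneic MSC 0.188%, so few genes of any kind passed the test. Limma-voom and DESeq2 also called none of the 10 in these comparisons. Hspa5 was the only member with an unadjusted p below 0.05, at -0.45 with syngeneic MSC (SE 0.15, unadjusted p = 0.0134, adjusted p = 0.314, edgeR quasi-likelihood test) and -0.41 with allogeneic MSC (SE 0.15, unadjusted p = 0.0226, adjusted p = 1.00, the same test). Of all genes, 13.5% had an unadjusted p below 0.05 with syngeneic and 2.94% with allogeneic MSC. Both comparisons share the SCI libraries. Without syngeneic replicate 3, which was the library closest to SCI, the syngeneic value was -0.69 and was called (adjusted p = 0.0228, edgeR quasi-likelihood test), and the number of all genes called rose from 6 to 866. That library stood apart from its group mates in tissue markers: fibroblast markers summed to 889 CPM against 121 and 173, astrocyte markers to 8381 against 5621 and 5319, and microglia and macrophage markers to 687 against 390 and 279. The part of this in the Hspa5 value was not tested.

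With syngeneic MSC, Hsph1 (0.26, CI -0.10 to 0.62), Dnajb1 (0.14, CI -0.07 to 0.36) and Hspd1 (0.18, CI -0.02 to 0.39) lay above SCI in every library, and Hspa5 and Bag3 (-0.21, CI -0.56 to 0.14) below it in every library. These are 3 genes higher and 2 lower without overlap, against 12.2% and 11.5% of all genes. With allogeneic MSC the 10 values ran from -0.63 for Hspa1b (CI -1.68 to 0.42) to 0.04 for Dnajb1, with a median of -0.13 against 0.00 over all genes. Taking both transplanted groups against SCI, 0 of 10 were called, against 0.0303% of all genes, and Hspa5 (-0.43, SE 0.13, adjusted p = 0.896, edgeR quasi-likelihood test) again had the only unadjusted p below 0.05. Here 5.29% of all genes had an unadjusted p below 0.05.

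Allogeneic and syngeneic transplants were compared with each other to ask whether the match of donor and host mattered, and edgeR, limma-voom and DESeq2 each called 0 of 10 genes, against 0.611% of all genes in edgeR. The unadjusted p lay below 0.05 for Hsph1 alone (-0.43, SE 0.17, adjusted p = 0.285, edgeR quasi-likelihood test), against 14.4% of all genes. Hsph1, Hspa8 and Hspd1 were each lower in all 3 allogeneic than in all 3 syngeneic libraries, and no member was higher without overlap. The share of all genes without overlap was not computed for this comparison. The values were -0.16 for Hspa8 (CI -0.39 to 0.06), -0.17 for Hspd1 (CI -0.37 to 0.04) and 0.04 for Hspa5 (CI -0.29 to 0.38). The interval of Hsph1 (CI -0.79 to -0.06), which is not adjusted over all genes, lay below 0. Those of the other members leave room for differences in either direction, so equal levels were not shown. T cell markers, which were at most 1.84 CPM in sum in the other groups, reached 19.6 to 37.9 CPM with allogeneic MSC, and their part in these values was not tested.

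Against non-injured cord, Hsph1 was the only member called with allogeneic MSC, at 0.639 of its non-injured level (CI 0.497 to 0.823; log2 fold change -0.65, SE 0.17, adjusted p = 0.0155, edgeR quasi-likelihood test). It was lower in 3 of 3 libraries, and the lowest, allogeneic replicate 3 at 133 CPM, drew the value: without that library it was -0.45 (adjusted p = 0.0363), and without allogeneic replicate 1 it was -0.84, both by the same test. Without non-injured replicate 1, and in a fit of these 2 groups alone, the call was lost (adjusted p = 0.0580 and 0.0813, the same test). In this comparison 1 of 10 genes was called lower and 0 higher, against 8.17% and 16.7% of all genes. Hspa8, Hsph1 and Hspd1 lay lower without overlap and no member lay higher, against 15.9% and 21.1% of all genes. Hspa8 (-0.28, adjusted p = 0.0697), Hspd1 (-0.25, adjusted p = 0.0711) and Hsp90aa1 (-0.32, adjusted p = 0.0983) did not pass edgeR's quasi-likelihood test, and DESeq2 called these 3 beside Hsph1. Without non-injured replicate 3, Hsp90aa1 and Hspa8 were called as well, and without allogeneic replicate 1 Hsp90aa1 and Hspd1 were. With syngeneic MSC against non-injured cord 0 of 10 genes were called, against 5.34% of all genes, and none was called by DESeq2 or limma-voom. None had an unadjusted p below 0.05 in edgeR, against 19.3% of all genes. Both transplanted groups share the non-injured libraries in these comparisons.

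The tissue of the groups differed in ways that moved with some of these values. The summed level of 5 neuronal markers (Snap25, Syt1, Rbfox3, Nefl and Eno2), all present in every library, was 7274 to 7918 CPM in non-injured cord, 4023 to 4937 in SCI, 5091 to 7136 with syngeneic and 4368 to 5099 with allogeneic MSC. Snap25 and Nefl made up most of this sum. Syt1 and Rbfox3 overlapped between non-injured cord (145, 180 and 30.0 CPM, and 126, 126 and 63.6) and SCI (122, 149 and 113 CPM, and 92.3, 87.0 and 77.9), and non-injured replicate 3 was the lowest library in both. The group means of Hspa8 and Hsph1 were likewise highest in non-injured cord and next highest with syngeneic MSC. The summed level of 5 microglia and macrophage markers, none at 0 in any library, moved the other way, at 94.6 to 125 CPM in non-injured cord, 666 to 818 in SCI, 279 to 687 with syngeneic and 665 to 905 with allogeneic MSC. The 4 astrocyte markers summed to 2102 to 3563 CPM in non-injured cord, 8085 to 9559 in SCI, 5319 to 8381 with syngeneic and 7679 to 10768 with allogeneic MSC. The 4 fibroblast markers summed to 52.3 to 163 CPM in non-injured cord, 941 to 1434 in SCI, 121 to 889 with syngeneic and 364 to 1343 with allogeneic MSC. No astrocyte or fibroblast marker was at 0 in any library. These sums, like Hspa5, were higher in every SCI than in every non-injured library. With allogeneic MSC the sums were again above all non-injured libraries, whereas Hspa5 (305 to 354 CPM) overlapped non-injured cord (293 to 323). The part of these shifts in the chaperone values was not tested, and in whole tissue fewer cells of a type and less RNA per cell cannot be told apart. Non-injured replicate 3, the library highest in Hspa1a, Hspa1b and Bag3, had 65911 CPM of oligodendrocyte markers, whereas its group mates had 34172 and 27271, and 10.9% mitochondrial counts against 4.998% to 8.80% elsewhere. Total counts ran from 8705942 in allogeneic replicate 2 to 26151928 in non-injured replicate 1.

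The other genes of the system, taken as lists, showed which parts of it differed between SCI and non-injured cord. In the list of nucleotide exchange factors and HSP90 co-chaperones 11 of 22 genes fell and 0 rose, against 9.26% of all genes called lower. The median log2 fold change was -0.35. This list also holds the HSP90 gene Hsp90b1, which is on the ER list below too, and Trap1, which is on the mitochondrial list. Its genes are called co-chaperones here for short. Fkbp4, which links HSP90 to steroid receptors, fell from 181 ± 0.573 to 124 ± 6.54 CPM (SD, n = 3; -0.55, SE 0.10). Cacybp, a partner of the ubiquitin ligase Siah, fell by 0.59 on the log2 scale (SE 0.12), and Ahsa1, which drives the ATPase of HSP90, fell by 0.53 (SE 0.11). The number that fell was 4 without non-injured replicate 1, 5 without SCI replicate 2 or 3, 6 without non-injured replicate 3, syngeneic replicate 3 or allogeneic replicate 2, and 7 without SCI replicate 1.

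In the list of the ER unfolded protein response 9 of 24 genes rose and 0 fell, with a median of 0.32, against 16.6% of all genes called higher. Edem1, which sends misfolded ER proteins to degradation, rose from 31.1 ± 3.85 to 67.4 ± 1.41 CPM (SD, n = 3; 1.11, SE 0.18). Dnajc3, a J-domain partner of BiP, rose by 0.77 (SE 0.13) and Trib3, a pseudokinase gene of the stress response, by 1.64 (SE 0.29) from 0.428 CPM. Also among the 9, and singled out here after their values were seen, were Ern1 and Eif2ak3, which encode the ER stress sensors IRE1 and PERK, and Xbp1, the transcription factor that IRE1 activates. The number that rose was 5 when non-injured replicate 1 or 2 or any SCI library was left out. Hspa5 was thus called higher in the same comparison as these 9 ER genes. No cytosolic member was called beside the 11 genes of the co-chaperone list that fell.

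In the other lists, as above, 16.6% of all genes called higher and 9.26% called lower is the background, and several of the counts lie near it. Of 8 heat shock factors and linked regulators 2 fell, Hsf4 (-0.70, SE 0.19) and Hsf2 (-0.32, SE 0.10), and Hsf1 itself was at 27.4 ± 1.89 CPM in non-injured cord and 22.2 ± 0.989 in SCI (-0.30, adjusted p = 0.0568, edgeR quasi-likelihood test). Of 19 J-domain genes 1 rose, Dnajc3, and 5 fell, led by Dnajc21 (-0.64, SE 0.13) and Dnaja4 (-0.46, SE 0.10). Of 7 small heat shock proteins tested 1 rose, Hspb6 (1.00, SE 0.18), with a list median of 0.52, and of 9 other HSP70 genes 1 rose, Hspa2 (0.90, SE 0.18). In the TRiC chaperonin, which folds actin and tubulin, 2 of 8 subunits fell, Cct8 (-0.29, SE 0.09) and Tcp1 (-0.28, SE 0.10). Of 12 mitochondrial chaperones and proteases 1 fell, Grpel1 (-0.28, SE 0.09), the exchange factor of mitochondrial HSP70. Of these, 5 calls depended on the setting: of 18 alternatives, Grpel1 and Tcp1 each lost the call in 11 (adjusted p up to 0.147 and 0.170), Hsf2 in 8 (0.109), Cct8 in 7 (0.121) and Hsf4 in 4 (0.0937), by the test each alternative used. Leaving out SCI replicate 2 or 3 or non-injured replicate 2 ended each of these 5 calls. Non-injured replicate 1 did so for all but Hsf2, SCI replicate 1 for all but Hsf4, and non-injured replicate 3 for Grpel1, Tcp1 and Hsf2. Of the libraries outside the comparison, syngeneic replicate 1 did so for these same 3 genes, and syngeneic replicate 3 and allogeneic replicate 2 for Grpel1 and Tcp1. Overlaps with other genes and copies were looked up for the 10 members only.

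**Figure D4:**
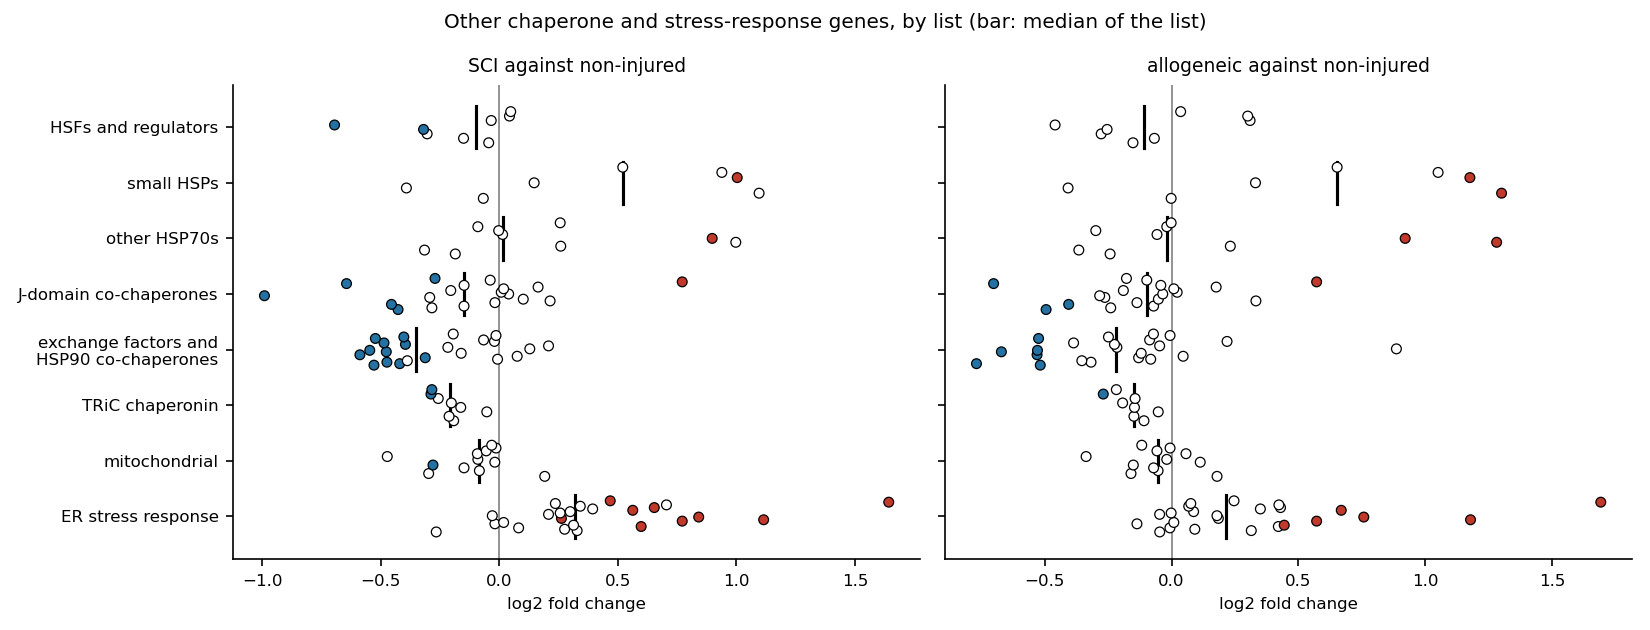
Log2 fold change of every tested gene of 8 lists in SCI (left) and with allogeneic MSC (right) against non-injured cord, with 1 point for each gene, filled red where called higher and blue where called lower, and a bar at the median of the list. The co-chaperone list lies left of 0 (median -0.35 in SCI and -0.22 with allogeneic MSC) and the ER list right of it (0.32 and 0.22).

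With allogeneic MSC against non-injured cord the ER list had 6 of 24 genes called higher, against 16.7% of all genes, among them Edem1 (1.18, SE 0.18), Trib3 (1.69, SE 0.29) and Ern1 (0.76, SE 0.16), while Hspa5 was at 0.07 (SE 0.15) and not called. The co-chaperone list had 6 of 22 genes called lower, against 8.17% of all genes, led by Ahsa2 (-0.77, SE 0.14), Chordc1 (-0.67, SE 0.13), which binds HSP90, and Fkbp4 (-0.53, SE 0.10). The small heat shock protein genes Hspb6 (1.18, SE 0.18) and Hspb1 (1.3, SE 0.39) rose, although the libraries of Hspb1 overlapped between groups, and so did Hspa2 (0.92, SE 0.18) and Hspa1l (1.28, SE 0.40), the latter from 0.339 to 0.779 CPM. Hspb1 lost the call in 6 of 18 alternatives (adjusted p up to 0.104), including without non-injured replicate 1 or 2 or allogeneic replicate 2 or 3. Hspa1l lost it in 7 (adjusted p up to 0.167), including DESeq2 and without non-injured replicate 1 or 2, syngeneic replicate 1 or allogeneic replicate 3. With syngeneic MSC against non-injured cord edgeR called 0 of 22 co-chaperones and 1 of 24 ER genes, Edem1, against 5.34% of all genes. Edem1 lost this call in 11 of 18 alternatives (adjusted p up to 0.191), including without any 1 of the non-injured or SCI libraries, syngeneic replicate 3, or allogeneic replicate 2 or 3. At an unadjusted p below 0.05 stood 4 of the 22 co-chaperones in this comparison, against 19.3% of all genes. Of 7 small heat shock proteins and 9 other HSP70 genes tested, 1 each was called higher. These were Hspb6 (0.97, adjusted p = 0.00819, edgeR quasi-likelihood test) and Hspa2 (0.87, adjusted p = 0.0165, the same test). They lost the call in 2 and 4 of 18 alternatives. In neither transplanted group did edgeR call any gene of the 8 chaperone lists against SCI. At an unadjusted p below 0.05 stood 12 of 24 ER genes and 6 of 22 co-chaperones with syngeneic MSC, against 13.5% of all genes. With allogeneic MSC these were 1 and 3, against 2.94% of all genes. Here the 1 ER gene, Hsp90b1 (-0.25), was also 1 of the 3 co-chaperones, beside Ahsa2 (-0.35) and Fkbp5 (0.76). Between syngeneic MSC and SCI the medians were 0.19 for the co-chaperone list and -0.27 for the ER list, against 0.00 over all genes.

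Genes that respond to handling, temperature or time of day were listed because chaperone levels can move with these. Immediate early genes, which are switched on within minutes by many stimuli, rose in 12 of 18 cases in SCI against non-injured cord, against 16.6% of all genes called higher, led by Junb (1.94, SE 0.21), Atf3 (4.23, SE 0.56) and Fosl2 (1.74, SE 0.23). The mean of this list lay 1.17 to 1.24 above the non-injured mean in the SCI libraries, 0.01 to 0.59 with syngeneic and 0.52 to 0.92 with allogeneic MSC. Against SCI, 1 of the 18 genes, Fos, was called lower in each transplanted group. It was at -1.88 with syngeneic (adjusted p = 0.0152) and -1.42 with allogeneic MSC (adjusted p = 0.0301, both edgeR quasi-likelihood test). These calls were lost in 6 and 9 of 18 alternatives. The mean of the 10 chaperone genes lay between -0.31 and 0.10 in all 12 libraries. Thus no library showed a shift in the mean of the 10 genes of the size seen in the immediate early list in SCI. In this mean, members that moved in opposite directions offset each other, such as Hspa5 (0.48) and Hsph1 (-0.48) in SCI against non-injured cord. All 18 immediate early genes had positive values in that comparison.

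**Figure D5:**
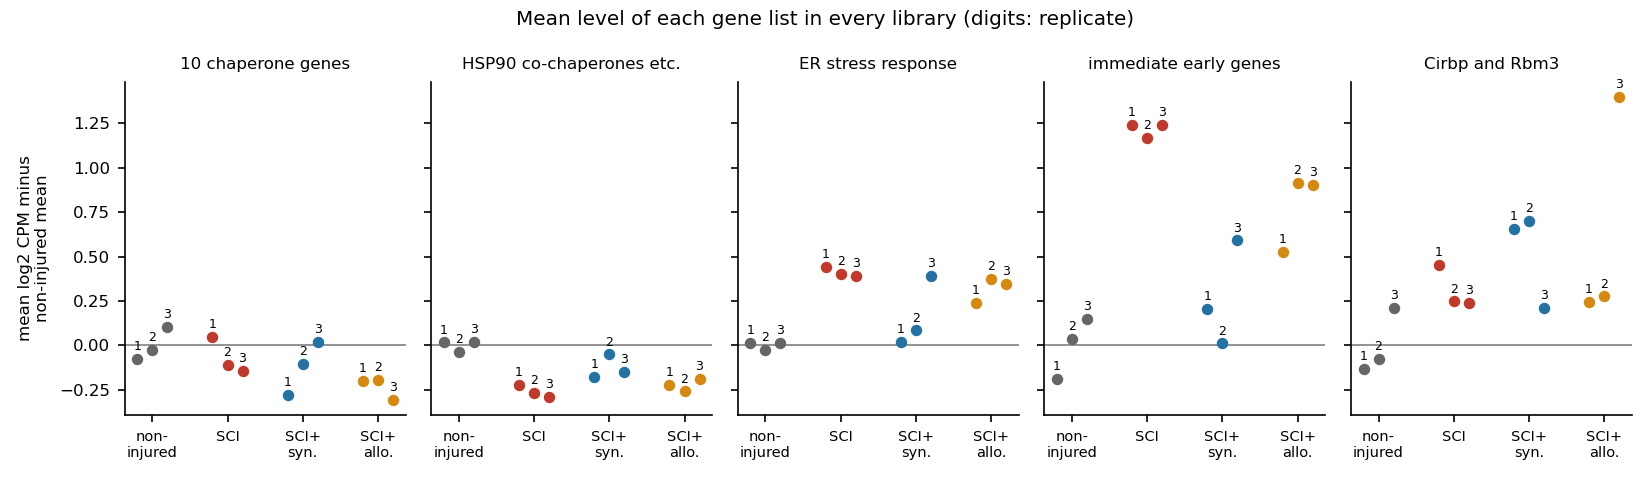
Mean log2 CPM of 5 gene lists in every library, relative to the mean of the non-injured libraries, with the replicate number at each point. The 10 chaperone genes stay between -0.31 and 0.10, the immediate early genes reach 1.24 in SCI, and Cirbp and Rbm3 reach 1.4 in allogeneic replicate 3.

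The cold-inducible RNA-binding protein genes Cirbp and Rbm3, which rise on mild cooling, set 1 library apart. Rbm3 was at 66.8, 74.4 and 162 CPM with allogeneic MSC against 43.3 to 57.2 in non-injured cord, and rose against it (1.07, SE 0.29, adjusted p = 0.0196, edgeR quasi-likelihood test). Without allogeneic replicate 3 the rise was 0.56 (adjusted p = 0.0456, the same test), and without non-injured replicate 1 or 2 the call was lost (adjusted p = 0.0724 and 0.0642, the same test), as it was with no filter and in a fit of these groups alone (0.0562 and 0.0649, the same test). Cirbp was at 45.2, 42.5 and 93.1 CPM in the same libraries and was not called (0.42, adjusted p = 0.254, the same test). Allogeneic replicate 3, highest in both, was the lowest of all 12 libraries in Hsph1 (133 CPM), Hsp90aa1 (817), Hsp90ab1 (1264), Hspa8 (1405) and Hspd1 (153). It was not the lowest library in the other members, Hspa1b (2.08 CPM), Dnajb1 (39.0), Bag3 (53.5), Hspa5 (310) and Hspa1a (4.98). For Hspa1a it was the highest of the allogeneic libraries. Whether temperature had a part in these values was not tested.

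Clock genes also differed between groups. Against non-injured cord 5 of 17 rose and 4 fell in SCI, where 16.6% and 9.26% of all genes were called in these directions, among them Dbp, an output gene of the clock (-1.02, SE 0.21), Nr1d1 (-0.66, SE 0.11) and Npas2 (1.15, SE 0.20). Dbp was at 20.6 to 21.4 CPM in SCI, 68.2 to 79.1 with syngeneic and 62.4 to 75.6 with allogeneic MSC, and was called higher in both transplanted groups against SCI (1.77, SE 0.21, and 1.68, SE 0.21). Arntl, the core clock factor BMAL1, was called lower in both (-1.22, SE 0.12, and -1.06, SE 0.12). When any 1 SCI library was left out these calls were lost for both genes. With syngeneic MSC they were also lost without syngeneic replicate 1 or 2. The adjusted p over the alternatives reached 0.131 and 0.0967 for Dbp, and 0.0829 and 0.0579 for Arntl. Npas2 was called lower against SCI with allogeneic MSC (-1.21, adjusted p = 0.0448, edgeR quasi-likelihood test) and lost this call in 9 of 18 alternatives. The transplanted groups thus differed from SCI in clock genes and in Fos in the same comparisons in which Hspa5 lay lower. The part of this in the chaperone values was not tested. The time of tissue collection is not given in the sources used here.

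Across the 12 libraries some members moved together and others apart. Pearson's r of log2 CPM was 0.93 between Hsph1 and Hspd1, 0.91 between Hsph1 and Hspa8, and 0.86 between Hsp90aa1 and Hsp90ab1. Hspa1b and Bag3 formed a second set (r = 0.78, and 0.78 for the deviations from the group means), and Hspa1a and Hspa1b had r = 0.75. Bag3 and Hsp90aa1 had r = -0.53, the only 1 of the 45 pairs below -0.5, whereas 15 pairs lay above 0.5. For the deviations from the group means, 7 pairs lay below -0.5 and 14 above 0.5. The lowest were Hspa1a with Hsp90aa1 (-0.75; -0.31 without removing the group means), Hspa1a with Hsph1 (-0.74; -0.23) and Bag3 with Hsp90aa1 (-0.71). Hspa5 had r between -0.43 and 0.51 with every other member. These values are descriptions over 12 libraries that share groups, scaling and tissue composition, and shared reads can add to the value of Hspa1a with Hspa1b.

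The genes outside the family most like a member were ranked by the same r. For Hspa5 they were Pdia6 (0.95), Calr (0.91) and Hsp90b1 (0.90), and r of the deviations from the group means was 0.92, 0.93 and 0.87. All 3 encode ER chaperones or folding enzymes and are on the ER list. For Hsph1 they were Tmem151b (0.97), Ankrd29 (0.96) and Ubqln4 (0.96), for Hsp90aa1 Wdr47 (0.99), Gphn (0.98) and Grin2d (0.98), and for Hspd1 Clic5 (0.98), Abhd6 (0.97) and Pank1 (0.97). The nearest genes were Anp32a for Hspa1a (0.90), Aspn for Hspa1b (0.92), Wrnip1 for Hspa8 (0.96), Hrh1 for Dnajb1 (0.84), Prpf38b for Bag3 (0.96) and Adam11 for Hsp90ab1 (0.95). Most of these neighbours changed when genes were ranked by r of the deviations from the group means. Of the genes named above, only Pdia6, Calr, Aspn, Clic5 and Abhd6 stayed among the 3 nearest to their member. For Hspa1a, Hsph1, Hsp90aa1, Hsp90ab1 and Bag3 all 3 nearest genes were others. The genes named were picked for their r over 12 libraries, and none of the values is a test.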

How the data were processed

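Per the labels, libraries were made with a stranded TruSeq mRNA kit. The authors deposited 1 table of unnormalized counts of reads for 46078 Ensembl genes in 12 libraries. Per the submitters' processing notes, which give no roles, featureCounts 1.5.1, STAR 2.5.1, Picard, StringTie 1.3.3, FastQC 0.11.5 and Trim Galore 0.4.1 were used, with the build GRCm38. The sources used here do not give the strand setting, the annotation release or how reads matching more than 1 gene were counted. Replicate numbers follow accession order and pair nothing.

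From these counts, genes were filtered with filterByExpr (minimum count 10, minimum total 15) and fitted with edgeR 4.0.16 in R 4.3.3 (robust quasi-likelihood, trimmed mean of M values, 1 mean per group, 8 residual degrees of freedom) in 7 comparisons, with Benjamini-Hochberg adjustment over the 16527 genes and a threshold of 0.05. Log2 CPM used a prior count of 2. The code was tested on simulated data. Coordinates and lengths came from GENCODE M21. Alternatives were RLE factors, library totals, no filter, limma-voom (limma 3.58.1), DESeq2 1.42.0, only the groups compared, the sum of Hspa1a and Hspa1b, and leaving out each library.

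The members and lists were chosen with earlier results of these data known. The rule for naming genes picked all 10 members, Cirbp, Rbm3, Hsf1 and Hspe1. It also picked up to 3 called genes per list and comparison with the smallest p, or, where none is called, 2 of the highest level. Last, it picked the 3 non-members of mean log2 CPM of at least 1 with the highest r for each member. Not all genes that the rule picked are printed, called ones included, so a gene left unnamed may have been called.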

Additional observations from a re-analysis of the deposited data

How the results depend on the processing

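The number of the 10 genes called in SCI against non-injured cord was 3 with RLE factors, 4 in DESeq2, 2 in a fit of only the groups compared, and 0 to 3 with 1 library left out. With allogeneic MSC against non-injured cord it was 4 in DESeq2, 0 in a fit of only the groups compared and 0 to 3 with 1 library left out, and with syngeneic MSC against SCI it was 0 to 1 with 1 library left out. In SCI against non-injured cord the co-chaperones that fell numbered 6 with library totals and 4 to 10 with 1 library left out, and the ER genes that rose 5 to 12. Of the 70 values of the members (10 genes, 7 comparisons), 22 took the opposite sign in at least 1 alternative, 7 uncalled ones were called in at least 1, and both called ones lost the call in at least 1; where no value above shows it, the cause was not tested. Library totals moved the median of all genes to 0.07 in SCI against non-injured cord.

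Signs turned mostly for values near 0. In SCI against non-injured cord, RLE factors gave -0.011 for Hspa1b, -0.013 for Bag3 and -0.0081 for Cirbp, no filter gave -0.031, -0.037 and -0.033, and DESeq2 gave -0.0071, -0.011 and -0.0059. For Hspa1a, library totals gave 0.071, limma-voom 0.012, the fit of only the groups compared 0.011 and the sum with Hspa1b 0.0040. Library totals also gave 0.019 for Hsf1 and 0.015 for Hspe1 in allogeneic against syngeneic, and 0.015 for Dnajb1 and 0.043 for Bag3 in allogeneic against non-injured cord. Limma-voom gave 0.061 for Hspa1b in allogeneic against syngeneic, and no filter -0.0081 for Hspa5 in syngeneic against non-injured cord.

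With 1 library left out, these values crossed 0. In SCI against non-injured cord they were Hspa1a (-0.12 to 0.17), Hspa1b (-0.35 to 0.58), Bag3 (-0.11 to 0.21) and Cirbp (-0.042 to 0.085). In syngeneic MSC against SCI they were Hsf1 (-0.019 to 0.076) and Hspe1 (-0.033 to 0.28). In allogeneic MSC against SCI they were Hsph1 (-0.36 to 0.031), Dnajb1 (-0.023 to 0.10), Hsp90ab1 (-0.063 to 0.0069), Bag3 (-0.17 to 0.013), Hspd1 (-0.049 to 0.10), Cirbp (-0.057 to 0.60), Rbm3 (-0.046 to 0.70) and Hsf1 (-0.032 to 0.14). In allogeneic against syngeneic they were Hspa1a (-0.25 to 0.16), Hspa1b (-0.51 to 0.21), Hspa5 (-0.081 to 0.29), Cirbp (-0.32 to 0.31), Rbm3 (-0.19 to 0.53), Hsf1 (-0.078 to 0.11) and Hspe1 (-0.14 to 0.17). In syngeneic MSC against non-injured cord they were Hspa1a (-0.32 to 0.0076), Hspa1b (-0.80 to 0.074), Dnajb1 (-0.026 to 0.090), Hsp90aa1 (-0.15 to 0.018) and Hspa5 (-0.21 to 0.15). In allogeneic MSC against non-injured cord they were Bag3 (-0.16 to 0.17) and Cirbp (-0.033 to 0.61). In both transplanted groups against SCI they were Hsph1 (-0.050 to 0.14), Hsp90aa1 (-0.085 to 0.0053), Hsp90ab1 (-0.019 to 0.034), Hspa8 (-0.056 to 0.011) and Hsf1 (-0.012 to 0.081).

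Hspa1a and Hspa1b had 20 to 109 counts each in a library, the fewest of the 10 genes. No paired analysis was possible because the labels give the groups no shared replicate numbers.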
